A study of Mus musculus with 42 samples.

Results

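Transcripts of 9 enzymes that act on quinones, aldehydes, epoxides and reactive carbonyls were followed in the lungs of newborn mice with and without the transcription factor Nrf2, in air and in hyperoxia. They are Nqo1, Cbr1, Cbr3, Aox1, Aox3, Akr1b8, Ptgr1, Ephx1 and Ugdh. The members were taken by symbol, from probe sets that list a single gene, and they are 9 of the 18194 genes measured. Each was represented by exactly 1 probe set, so no choice between probe sets had to be made for them. Over the 42 arrays their mean log2 levels ran from 6.46 (Aox1) to 10.72 (Ugdh), against medians of all probe sets on an array of 6.31 to 6.40.

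The study hybridised lung RNA of 42 neonatal mice, 1 mouse per array, in 14 groups of 3. Wild-type (Nrf+/+) and knockout (Nrf-/-) pups breathed room air and were sampled at postnatal days P1 (the day of birth), P2, P3 and P4. Other pups of both genotypes spent 1, 2 or 3 days in a chamber with at least 95% O2 for 23 hours a day and were sampled at P2, P3 and P4, and all pups were kept with foster dams. The labels state neither strain nor allele construction nor array dates, and they name no cell type to which the deletion is confined. Nfe2l2, the gene that encodes Nrf2, lay between 4.26 and 5.46 on the 21 knockout arrays and between 10.32 and 11.56 on the 21 wild-type arrays. None of the 9 members lies on chromosome 2, where Nfe2l2 lies.

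Marker genes of other organs were present in these homogenates, and they were unevenly spread. A score, the mean log2 deviation of a marker list from its median over the 42 arrays, exceeded 2 for liver, heart muscle, skeletal muscle or thymocytes on 17 arrays. For liver (11 of 12 markers measured) this held for 9 wild-type arrays and 1 knockout array, with scores of -0.34 to 7.74 in wild-type air, -0.37 to 4.31 in knockout air, -0.28 to 5.11 in wild-type hyperoxia and -0.38 to 0.34 in knockout hyperoxia. Thymocyte scores (11 of 12 markers) passed 2 on 2 knockout arrays, both of P2 in air, at 3.73 for replicate 1 and 2.81 for replicate 3. Every wild-type air array of P1 and P2 was over the limit for at least 1 of the 4 organs. Among the lung's own cells, macrophage markers (9 of 10) ranged from -0.28 to 0.56 in wild-type air, -0.71 to 0.15 in knockout air, 0.09 to 0.92 in wild-type hyperoxia and -0.36 to 0.48 in knockout hyperoxia. Club cell markers (11 of 12) had means of 0.17, -0.29, -0.01 and -0.17 in the same order. The 4 organ scores entered some of the alternative fits below as covariates, or decided which arrays were left out. Scores for brown and white fat (7 of 10 markers) were used for neither. They reached 2.44 in wild-type air, 2.005 in knockout air, 2.05 in wild-type hyperoxia and 1.81 in knockout hyperoxia. Wild-type air P4 replicate 1, at 2.14 for fat, was not among the 17 arrays. Without the arrays over the limit, only replicate 1 was left in wild-type air P3 and in knockout air P3. Only replicate 2 was left in knockout air P2 and in wild-type hyperoxia P4. In fits without those arrays, a lost call cannot be told apart from the loss of arrays. The part of macrophages and club cells in the differences was not tested. In homogenates, fewer cells of a type and less RNA per cell cannot be told apart.

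Quinones and other electrophiles form when oxygen radicals attack lipids, catechols and inhaled compounds, and cells dispose of them in stages. Reductases take carbonyls and quinones to alcohols and hydroquinones, oxidases turn aldehydes into acids, hydrolases open epoxides to diols, and glucuronic acid is then joined to the products for export. Nrf2 is held in the cytosol by Keap1 and degraded, and when electrophiles modify Keap1 it accumulates, enters the nucleus and, with a small Maf protein, binds antioxidant response elements near genes of this kind, of which Nqo1 is a classic example.

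The 250 bases before the RefSeq start of each member (mouse build GRCm38.p6, 9 of 9 members matched) were searched on both strands for the core of the antioxidant response element, TGACNNNGC, for its looser form TGANNNNGC, and for the AP-1 site TGACTCA, which overlaps the first where GC follows it. The 3 sequences printed here are those of the member with the only core matches, the member with the only AP-1 match and the member with the largest hyperoxia effect, which had neither. Matches are in capitals and each sequence reads 5′ to 3′ on the strand of its gene.
Ugdh, chr5:65435843-65436092, minus strand: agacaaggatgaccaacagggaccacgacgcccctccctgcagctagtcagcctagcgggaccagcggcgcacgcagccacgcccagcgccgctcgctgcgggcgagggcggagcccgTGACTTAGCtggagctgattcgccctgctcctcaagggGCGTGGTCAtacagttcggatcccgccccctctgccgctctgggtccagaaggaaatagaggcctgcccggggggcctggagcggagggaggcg
Aox1, chr1:58029719-58029968, plus strand: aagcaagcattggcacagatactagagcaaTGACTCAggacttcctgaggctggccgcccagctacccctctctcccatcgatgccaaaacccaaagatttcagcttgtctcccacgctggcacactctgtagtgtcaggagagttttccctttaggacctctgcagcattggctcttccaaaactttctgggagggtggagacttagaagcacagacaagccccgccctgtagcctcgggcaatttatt
Akr1b8, chr6:34353896-34354145, plus strand: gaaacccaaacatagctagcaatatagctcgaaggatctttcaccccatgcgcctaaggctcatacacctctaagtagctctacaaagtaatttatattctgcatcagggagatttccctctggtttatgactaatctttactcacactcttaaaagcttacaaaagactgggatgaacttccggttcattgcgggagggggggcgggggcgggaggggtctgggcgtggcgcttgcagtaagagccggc

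The Ugdh window held TGACTTAGC, 132 to 124 bases before the start, and GCGTGGTCA, a match on the opposite strand, 94 to 86 bases before it. Of 32851 windows of the same length, 10.2% held TGACNNNGC, 35.2% held TGANNNNGC and 4.46% held TGACTCA. TGACNNNGC and TGANNNNGC were found in 1 of the 9 members, Ugdh, and TGACTCA in 1, Aox1, 220 to 214 bases before its start. These letters in these windows are a description, and elements farther from a start lie outside them. The members include 2 neighbouring pairs, Aox1 with Aox3 on chromosome 1 and Cbr1 with Cbr3 on chromosome 16, each with 0 protein-coding genes between them.

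In room air, averaged over P1 to P4, 8 of the 9 members were lower in knockout lung, where 14.4% of all genes were called lower. A gene is called here at an adjusted p under 0.05 (limma, two-sided, Benjamini-Hochberg over 18194 genes). Aox3 differed most, at -1.53 ± 0.09 (log2 difference, knockout minus wild type, with its SE), followed by Aox1 at -1.26 ± 0.09 and Akr1b8 at -0.63 ± 0.10. A fit without the 17 arrays over the organ limit, chosen after the data were seen, leaves only P3 and P4. At P3 it leaves 1 array of each genotype. In that fit the 8 members kept their direction, but the calls of Cbr1, Cbr3, Akr1b8, Ptgr1 and Ephx1 were not kept. This cannot be told apart from the loss of arrays. In hyperoxia, averaged over 1 to 3 days, 7 of 9 were lower, against 6.18% of all genes. The order changed there: Aox1 stood at -2.11 ± 0.10, Aox3 at -1.65 ± 0.10, Nqo1 at -1.56 ± 0.09 and Akr1b8 at -1.43 ± 0.12. The median difference of the 9 members was -0.37 in air and -0.80 in hyperoxia, while the median of all genes was 0.01 in both. With cyclic loess between arrays, 35.2% rather than 50.5% of all calls between genotypes in hyperoxia were higher in knockout, and the members called in the fit of the deposited values kept their direction.

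**Figure D1:**
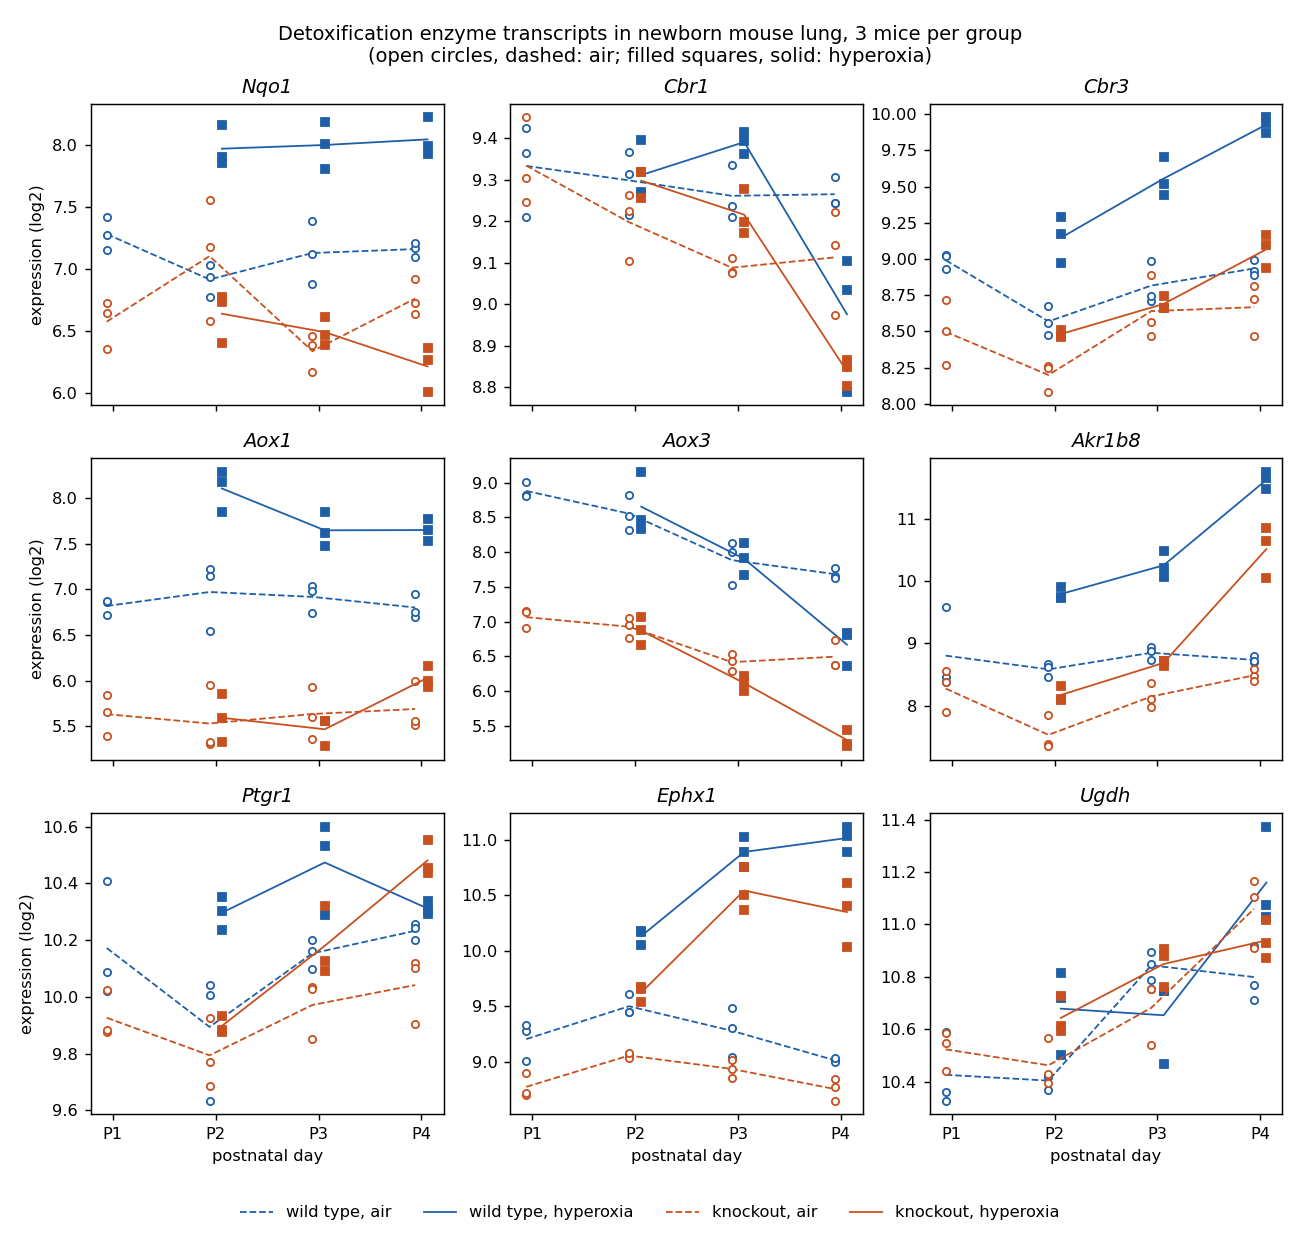
Log2 expression of the 9 members (1 panel each, each with its own axis) against postnatal day, with 1 point per array, open circles and dashed mean lines for air, filled squares and solid mean lines for hyperoxia, wild type in blue and knockout in orange. Knockout arrays lie below wild-type arrays at every age for Aox1 and Aox3, while those of Ugdh and of Cbr1 each overlap between genotypes in 4 of the 7 pairs of groups.

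**Figure D2:**
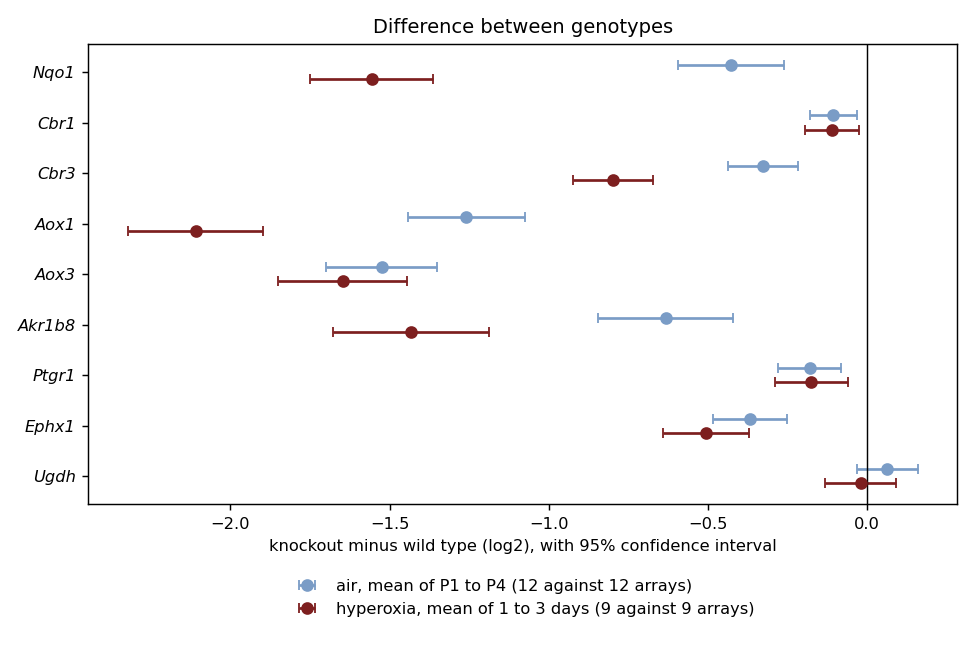
Difference between genotypes (knockout minus wild type, log2) of each member with its 95% confidence interval from limma, in air (mean of P1 to P4, 12 against 12 arrays) and in hyperoxia (mean of 1 to 3 days, 9 against 9 arrays). The intervals of Nqo1, Cbr3, Aox1 and Akr1b8 in hyperoxia lie entirely below those in air, whereas those of Cbr1, Aox3, Ptgr1, Ephx1 and Ugdh overlap.

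Nqo1, the quinone reductase that turns quinones into hydroquinones by transferring a pair of electrons at once, read 8.16, 7.85 and 7.90 in wild-type lung after 1 day of hyperoxia, 8.18, 7.81 and 8.01 after 2 days and 7.99, 7.92 and 8.22 after 3 days. The knockout arrays read 6.78, 6.74 and 6.41 after 1 day, 6.61, 6.39 and 6.47 after 2 days and 6.27, 6.37 and 6.01 after 3 days. The 2 genotypes did not overlap on any day of hyperoxia, and the single-day differences were -1.33, -1.51 and -1.83. Against air of the same age, wild-type Nqo1 rose by 0.94 ± 0.09 averaged over the 3 days (adjusted p = 4.59e-09, 1.91-fold), and by 0.62 over days 2 and 3 without the arrays over the organ limit (adjusted p = 0.00379). The rise was called at each of the 3 days. At day 1 it was not called in a fit of these arrays alone (adjusted p = 0.0535), and at day 2 it was 0.52 and not called without the arrays over the organ limit (adjusted p = 0.227). The effect at day 3 minus that at day 1 was -0.17 (95% interval -0.64 to 0.30).

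In air the Nqo1 readings varied with age. Wild-type means were 7.28 ± 0.13 (SD, n = 3) at P1, 6.92 ± 0.13 at P2, 7.13 ± 0.26 at P3 and 7.16 ± 0.06 at P4, and knockout means were 6.58 ± 0.19, 7.10 ± 0.49, 6.34 ± 0.15 and 6.76 ± 0.14. At P1, P3 and P4 every knockout array lay below every wild-type array. At P2 the knockout arrays read 7.56, 6.58 and 7.18 and overlapped the wild-type arrays at 6.94, 6.77 and 7.03. The knockout arrays at 7.56 and 7.18 were the same 2 that carried thymocyte scores over 2, and the one at 7.18 also scored 4.31 for liver and 2.92 for skeletal muscle. The part of these tissues in their Nqo1 readings was not tested. The mean difference over the 4 ages was -0.43 ± 0.08 (adjusted p = 0.000211), and it was -0.68 ± 0.13 over P3 and P4 without the 17 arrays over the organ limit. Under hyperoxia knockout Nqo1 stood at -0.29 ± 0.09 against air (adjusted p = 0.0276). That call was not kept with the organ scores as covariates (-0.13, adjusted p = 0.594), without the arrays over the limit (-0.15, adjusted p = 0.309) or in a fit of these arrays alone (adjusted p = 0.0824). It was also lost when any of 7 arrays was left out (knockout air P2 replicates 1 and 3, P3 replicate 1 and P4 replicate 1; knockout hyperoxia P2 replicate 3, P3 replicate 2 and P4 replicate 3), with adjusted p from 0.0508 to 0.0822.

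Cbr1 and Cbr3 are neighbouring carbonyl reductases of the short-chain dehydrogenase family. Cbr3 in wild-type hyperoxia read 9.29, 9.17 and 8.98 at 1 day, 9.44, 9.52 and 9.70 at 2 days and 9.98, 9.87 and 9.94 at 3 days, whereas wild-type air arrays of P2 to P4 ran from 8.47 to 8.996. Knockout hyperoxia arrays read 8.46, 8.51 and 8.47 at 1 day, 8.66, 8.66 and 8.75 at 2 days and 9.17, 9.10 and 8.94 at 3 days, below all wild-type arrays of the same day. Its mean difference between genotypes was -0.80 ± 0.06 in hyperoxia (adjusted p = 2.59e-11) and -0.33 ± 0.05 in air (adjusted p = 2.81e-05). Over P3 and P4 without the arrays over the organ limit the air difference was -0.20, with an adjusted p of 0.241. Hyperoxia raised Cbr3 by 0.77 ± 0.06 in wild type and by 0.24 ± 0.06 in knockout, and the knockout rise was not kept with the organ scores as covariates (0.17, adjusted p = 0.214) or without the arrays over the limit (0.14, adjusted p = 0.227).

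The 14 group means of Cbr1 spanned 0.55 log2 units, the narrowest span of the 9, from 8.84 ± 0.03 in knockout after 3 days of hyperoxia to 9.39 ± 0.03 in wild type after 2 days. The genotype difference of -0.11 ± 0.04 in air had an adjusted p of 0.0267, which passed 0.05 when any of 5 arrays was left out (wild-type air P1 replicate 3 or P3 replicate 1; knockout air P1 replicate 1, P2 replicate 3 or P4 replicate 2; adjusted p 0.0527 to 0.0596), in a fit of the air arrays alone (0.0532) and with the organ scores as covariates (0.0970). In hyperoxia the difference of -0.11 was not called (adjusted p = 0.0847), but it was with cyclic loess (adjusted p = 0.00449), with array weights (0.00368) and without wild-type hyperoxia P4 replicate 1 (0.0184). On the third day of hyperoxia both genotypes were low: wild type read 8.79, 9.03 and 9.10, against 9.24, 9.24 and 9.31 in air, and knockout read 8.85, 8.80 and 8.86, against 9.22, 8.97 and 9.14 in air. The difference from air was -0.29 ± 0.07 in wild type and -0.27 ± 0.07 in knockout (adjusted p = 0.00251 and 0.00348), with no overlap between air and hyperoxia in either, and without wild-type hyperoxia P4 replicate 1 the wild-type value was -0.20 with an adjusted p of 0.0529. Neither genotype was called in a fit of its arrays alone (adjusted p = 0.0522 and 0.0724), nor was wild type without the arrays over the organ limit (-0.21, adjusted p = 0.244). Of all genes, 12.5% in wild type and 14.7% in knockout were called lower on that day.

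The aldehyde oxidases Aox1 and Aox3 are molybdenum enzymes that oxidise aldehydes and nitrogen heterocycles, and the liver also makes them in quantity. Wild-type Aox1 read 7.23, 6.54 and 7.15 in air at P2 and 7.85, 8.19 and 8.29 after 1 day of hyperoxia, the group with its highest mean. It read 7.47, 7.86 and 7.62 after 2 days and 7.53, 7.65 and 7.78 after 3 days. Knockout Aox1 read 5.30, 5.33 and 5.95 in air at P2, 5.86, 5.59 and 5.32 after 1 day, 5.28, 5.55 and 5.56 after 2 and 5.997, 6.16 and 5.93 after 3 days. All 21 knockout arrays, at 5.28 to 6.16, lay below all 21 wild-type arrays, at 6.54 to 8.29.

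Aox1 was 2.39-fold lower in knockout air (adjusted p = 5.79e-12) and 4.32-fold lower in knockout hyperoxia (adjusted p = 4.63e-16). In wild-type lung it rose by 0.91 ± 0.10 in hyperoxia (adjusted p = 6.25e-08), with single-day values of 1.14, 0.73 and 0.85. In knockout the mean hyperoxia effect was 0.08 ± 0.10 and was not called (adjusted p = 0.690, 95% interval -0.13 to 0.29). The lowest knockout level of Aox1, 5.28, stood above the 10th percentile of an array, which was 4.27 at the median array. It also lay within the range of the deleted Nfe2l2 on knockout arrays, 4.26 to 5.46. All knockout Aox1 readings, up to 6.16, were below the medians of all probe sets on an array, 6.31 to 6.40. How far background limits the knockout values and the oxygen effect there was not tested.

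Aox3 was also lower in knockout, and in both genotypes it was lower with age and after 3 days of hyperoxia. In wild-type air it read 8.83, 9.003 and 8.81 at P1 and 7.66, 7.76 and 7.62 at P4, and in knockout air 7.15, 6.90 and 7.14 at P1 and 6.74, 6.38 and 6.37 at P4. Every knockout array lay below every wild-type array of the same age and condition, in all 7 pairs of groups. From P1 to P4 it fell by 1.20 in wild-type air (adjusted p = 3.31e-06) and by 0.57 in knockout air (adjusted p = 0.0154), and the latter was not called without knockout air P1 replicate 1 or 3 or P4 replicate 2 or 3 (adjusted p 0.0543 to 0.0647). Hyperoxia arrays were lower still on the third day. Wild type read 6.37, 6.80 and 6.84 and knockout 5.24, 5.43 and 5.21, which are differences from air of -1.02 ± 0.17 and -1.20 ± 0.17 (adjusted p = 2.47e-05 and 1.68e-06). At 1 and 2 days the wild-type effects were 0.10 and 0.02 and the knockout effects -0.06 and -0.30, none of them called. Averaged over the 3 days the wild-type effect of -0.30 had an adjusted p of 0.0244. It was lost in a fit of these arrays alone (0.0916) and without any of wild-type air P2 replicate 2, P3 replicate 2, or wild-type hyperoxia P2 replicates 1 and 2, P3 replicate 2 and P4 replicate 1 (0.0593 to 0.0737). The knockout mean of -0.52 was called in each of the 27 alternatives run. The arrays of the third day had liver scores of 1.33 to 4.66 (wild type) and of -0.20 to -0.02 (knockout).

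With the 4 organ scores as covariates, both aldehyde oxidases kept their call between genotypes in air and in hyperoxia. Over all alternatives the air difference of Aox1 stayed between -1.31 and -1.21 and that of Aox3 between -1.57 and -1.43. In hyperoxia the ranges were -2.15 to -2.06 for Aox1 and -1.70 to -1.56 for Aox3.

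Akr1b8, an aldo-keto reductase that reduces lipid-derived aldehydes, had the widest span of the 9, with 4.09 log2 units between its lowest and highest group means. In wild-type hyperoxia it read 9.74, 9.90 and 9.72 at 1 day, 10.06, 10.20 and 10.49 at 2 days and 11.75, 11.47 and 11.65 at 3 days. In knockout hyperoxia it read 8.10, 8.10 and 8.31 at 1 day, 8.63, 8.72 and 8.71 at 2 days and 10.65, 10.84 and 10.05 at 3 days, so that the third day was the highest in both genotypes. No knockout array reached a wild-type array of the same day. In air at P4 the same transcript read 8.69, 8.79 and 8.71 in wild type and 8.48, 8.39 and 8.58 in knockout.

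The third day of hyperoxia raised Akr1b8 7.41-fold in wild type (2.89 ± 0.21, adjusted p = 1.84e-12) and 4.07-fold in knockout (2.03 ± 0.21, adjusted p = 4.58e-09), when 15% and 17% of all genes were called higher. The difference between genotypes in this third-day effect was not called, but it was with array weights (-0.84, adjusted p = 0.0471). The effect at day 3 exceeded that at day 1 by 1.68 ± 0.29 in wild type and 1.39 ± 0.29 in knockout (adjusted p = 0.000154 and 0.000533). One wild-type air array of P1, replicate 1, read 9.58 where its companions read 8.45 and 8.37, and at that age the genotypes overlapped. The mean air difference of -0.63 had an adjusted p of 3.01e-05. Over P3 and P4 without the arrays over the organ limit it was -0.42, with an adjusted p of 0.118. Among the 4 ages it was smallest at P4, at -0.25.

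Ptgr1 reduces the double bond of enones such as leukotriene and prostaglandin metabolites and 4-hydroxynonenal. Its group means lay within 0.69 log2 units, from 9.79 ± 0.12 to 10.48 ± 0.06. Wild type rose by 0.27 ± 0.06 with hyperoxia and knockout by 0.25 ± 0.06 (adjusted p = 0.000471 and 0.00121). By day, the wild-type single-day values were 0.40, 0.32 and 0.08 and those of knockout 0.10, 0.21 and 0.44, but on no day was the difference between genotypes in the effect called. After 3 days the knockout arrays, at 10.55, 10.46 and 10.44, were above the wild-type arrays, at 10.31, 10.34 and 10.29, a difference of 0.17 that was not called (adjusted p = 0.270). In air Ptgr1 was lower in knockout by 0.18 ± 0.05 (adjusted p = 0.00571), which over P3 and P4 without the arrays over the organ limit was -0.16 with an adjusted p of 0.194. In hyperoxia the difference of -0.17 (adjusted p = 0.0360) was lost when any of 12 of the 18 arrays was left out. These were, in wild-type hyperoxia, replicates 1 and 2 of P2, 2 and 3 of P3 and 1 and 2 of P4, and in knockout hyperoxia replicates 1 and 2 of P2, 1 and 2 of P3 and 2 and 3 of P4, with adjusted p from 0.0532 to 0.0824.

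Ephx1, the microsomal epoxide hydrolase, rose with oxygen in both genotypes. Wild-type arrays read 10.17, 10.18 and 10.06 after 1 day, 10.75, 10.89 and 11.02 after 2 and 10.89, 11.12 and 11.03 after 3 days. Knockout arrays read 9.66, 9.54 and 9.68 after 1 day, 10.37, 10.50 and 10.75 after 2 and 10.61, 10.04 and 10.40 after 3 days. Within each genotype, no air array reached the hyperoxia arrays of the same age. Averaged over the days the rise was 1.41 ± 0.07 in wild type (2.66-fold, adjusted p = 6.84e-17) and 1.25 ± 0.07 in knockout (2.38-fold, adjusted p = 2.57e-15). The rises of the genotypes differed by -0.16 (knockout minus wild type, 95% interval -0.35 to 0.03), which was not called. At day 2 they were 1.61 in wild type and 1.60 in knockout, and at day 3 they were 1.996 and 1.59.

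Knockout Ephx1 was lower at matched age and exposure. The difference was -0.37 ± 0.06 in air (adjusted p = 1.37e-05) and -0.51 ± 0.07 in hyperoxia (adjusted p = 1.99e-06), and the 3 knockout arrays lay below the 3 wild-type arrays in all 7 pairs of groups. Over P3 and P4 without the arrays over the organ limit the air difference was -0.36, with an adjusted p of 0.0594. Liver, which also makes this enzyme, scored higher on the wild-type arrays, as given above. With the organ scores as covariates the mean difference between genotypes was called in both conditions. The single-age calls in air were lost there at P2 (-0.46, adjusted p = 0.271) and P3 (-0.35, adjusted p = 0.129). The part of liver in the difference was not tested.

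Ugdh makes UDP-glucuronic acid from UDP-glucose, the donor for glucuronide conjugation and a building block of hyaluronan. It had the highest mean on its probe set and was not called between genotypes, with 0.06 in air (95% interval -0.03 to 0.16) and -0.02 in hyperoxia (-0.13 to 0.09). It was the member whose promoter window held the TGACNNNGC matches shown above. With age in air it rose by 0.37 ± 0.09 from P1 to P4 in wild type and by 0.54 ± 0.09 in knockout (adjusted p = 0.00367 and 8.30e-05). The P1 arrays, at 10.59, 10.33 and 10.36 in wild type and 10.55, 10.44 and 10.59 in knockout, lay below the P4 arrays of their genotype, at 10.77, 10.92 and 10.71 in wild type and 11.16, 10.91 and 11.10 in knockout. Its wild-type hyperoxia effect of 0.15 (adjusted p = 0.0462) was lost over days 2 and 3 without the arrays over the organ limit (0.04, adjusted p = 0.839), in a fit of these arrays alone (0.0874), with the organ scores as covariates (0.107) and when any of 12 of the 18 arrays was left out (0.0562 to 0.140). These were, in wild-type air, all replicates of P2, 2 and 3 of P3 and 1 and 3 of P4, and in wild-type hyperoxia replicates 1 and 2 of P2, 2 and 3 of P3 and 1 of P4. By day the effect was 0.27, -0.19 and 0.36, with the opposite sign on day 2, and only that of day 3 was called (adjusted p = 0.00398). The day 3 call was lost without the arrays over the limit (0.23, adjusted p = 0.228) and without wild-type hyperoxia P4 replicate 1 (0.25, adjusted p = 0.0658).

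Taking the exposure comparison over all members, hyperoxia raised 7 of 9 and lowered 1, Aox3, in wild type, against 14.4% and 9.53% of all genes. In knockout it raised 4 (Ephx1, Akr1b8, Ptgr1 and Cbr3) and lowered 2 (Aox3 and Nqo1), against 13.5% and 7.28%. The median effect of the 9 was 0.77 in wild type and 0.08 in knockout, beside 0.01 for all genes in both. With cyclic loess, 52.5% rather than 65.0% of all calls in knockout were higher, and no member changed direction among those called.

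**Figure D3:**
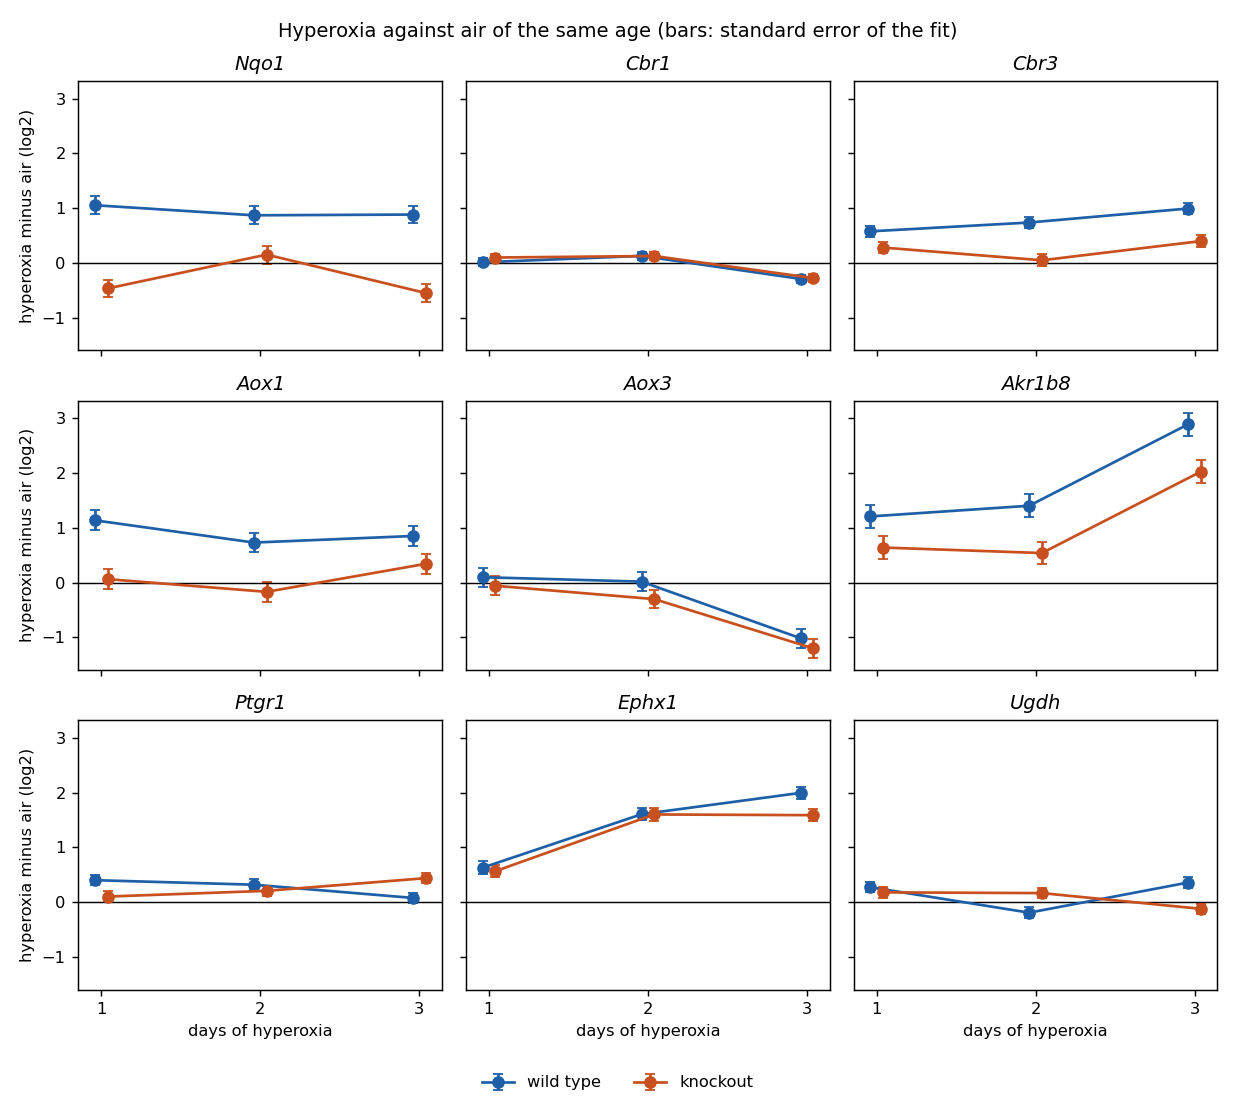
Hyperoxia minus air of the same age (log2) after 1, 2 and 3 days, 1 panel per member on a common axis, wild type in blue and knockout in orange, with bars for the standard error of the limma fit (3 against 3 arrays each). The lines of Nqo1, Cbr3, Aox1 and Akr1b8 are separate on each day, those of Ephx1 and Cbr1 nearly coincide at days 1 and 2, and Aox3 drops at day 3 in both genotypes. By single day, the genotype difference in the effect was called for 2, 1 and 1 of the 9 members at days 1, 2 and 3. All were lower in knockout, where 1.35%, 0.423% and 0.401% of all genes were called lower.

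Whether the oxygen effect itself differed between genotypes was tested as an interaction, the effect in knockout minus the effect in wild type. It was called for 4 of the 9 members, all with a smaller value in knockout, where 0.511% of all genes were called in that direction. Nqo1 differed by -1.22 ± 0.13 (adjusted p = 7.82e-07), from 0.94 in wild type to -0.29 in knockout. Aox1 differed by -0.83 ± 0.15 (adjusted p = 0.00155), Akr1b8 by -0.76 ± 0.17 (adjusted p = 0.0148) and Cbr3 by -0.53 ± 0.09 (adjusted p = 0.000697). All 4 were called with every array left out in turn. They were also called with cyclic loess, with array weights, with a trended variance, with the replicate number as a block, in a fit of these arrays alone and with the organ covariates (Aox1 there at an adjusted p of 0.0494). Among the brighter genes only, Nqo1, Akr1b8 and Cbr3 were called, and Aox1 was too dim to be in that fit. Over days 2 and 3 without the arrays over the organ limit, an alternative chosen after the data were seen that left some groups with 1 array, none of the 4 was called. Their values there were -0.88 for Nqo1 (adjusted p = 0.0586), -0.67 for Cbr3 (0.0896), -0.89 for Akr1b8 (0.188) and -0.66 for Aox1 (0.332). With cyclic loess, 44.1% rather than 57.1% of all genes called in this comparison were higher. The interaction and the oxygen effects of both genotypes use the same arrays, so their values are not independent.

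The other 5 members had interaction values of -0.22 (Aox3), -0.16 (Ephx1), -0.07 (Ugdh), -0.02 (Ptgr1) and 0.03 (Cbr1), and their 95% intervals all included 0. By day, Nqo1 differed by -1.52 after 1 day, -0.72 after 2 and -1.43 after 3, of which the first and the third were called (adjusted p = 0.00102 and 0.000919), where 1.35% and 0.401% of all genes were called lower. The day 1 call was lost in a fit of these arrays alone (adjusted p = 0.173) and with the organ covariates (-1.19, adjusted p = 0.166). The day 1 value sets hyperoxia against the knockout air arrays of P2, at 7.56, 6.58 and 7.18, the highest mean of the 4 ages. Of these, the arrays at 7.56 and 7.18 had thymocyte scores over 2. The day 2 value sets hyperoxia against the knockout air arrays of P3, at 6.46, 6.39 and 6.17, the lowest mean of the 4 ages.

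The change of the oxygen effect from day 1 to day 3 was called for 4 members in each genotype. In wild type it was called higher for Akr1b8 and Ephx1 and lower for Aox3 and Cbr1, where 7.43% of all genes were called in each direction. The same 4 members were called the same way in knockout, where 15.5% and 14.8% of all genes were. Ephx1 gained 1.37 ± 0.16 in wild type and 1.02 ± 0.16 in knockout, and Aox3 lost 1.11 ± 0.24 and 1.14 ± 0.24. Cbr1 lost 0.30 and 0.37 (adjusted p = 0.0421 and 0.00537). The wild-type value of Cbr1 was not called in a fit of these arrays alone (0.127), with organ covariates (0.0620) or without any of 8 arrays (wild-type air P2 replicates 1 and 3 and P4 replicates 1, 2 and 3; wild-type hyperoxia P2 replicates 1 and 2 and P4 replicate 1; 0.0542 to 0.185). The knockout value was not called with organ covariates (0.0660) or without the arrays over the limit (0.0579). Cbr3 in wild type stood at 0.42 (adjusted p = 0.0602) and was called in 5 of the alternatives that left out no single array and without wild-type hyperoxia P2 replicate 1 (0.0391). In knockout, Ptgr1 at 0.34 and Ugdh at -0.30 were not called (adjusted p = 0.0616 and 0.0884). Ptgr1 was called with cyclic loess (0.0193), among the brighter genes only (0.0467) and without knockout air P2 replicate 2 (0.0365). Ugdh was called with array weights (0.0235) and without knockout air P4 replicate 2 (0.0405).

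Age in air, P4 against P1, was called for 2 of 9 members in wild type, where 11.2% of all genes were called higher and 11.3% lower, and for 3 of 9 in knockout, where 8.09% and 13.5% were. Ugdh rose and Aox3 fell in both genotypes, as given above. In knockout Cbr1 fell by 0.22 (adjusted p = 0.0260), from 9.25, 9.31 and 9.45 to 9.22, 8.97 and 9.14. That call was lost without knockout air P1 replicate 3 (adjusted p = 0.152) or P4 replicate 2 (0.177), with array weights (0.0937) and in a fit of these arrays alone (0.171). The age effect was not called as different between genotypes for any member by limma (0 of 9, against 5 of 18194 genes, 0.0275%), and 1 of 9, Aox3, had an unadjusted p under 0.05, with 0.63 (95% interval 0.13 to 1.12).

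Across the 42 arrays the members fell into patterns of their own, given here as Pearson correlations of log2 levels with no test. All 42 arrays were pooled over genotype, age and exposure, so these values include the differences between groups given above. Cbr3 ran most closely with Akr1b8 (r = 0.91), and Nqo1 with Aox1 (r = 0.83). The neighbours Cbr1 and Cbr3 had an r of -0.15 and the neighbours Aox1 and Aox3 one of 0.63. Cbr1 ran against Ugdh (r = -0.58).

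Among the 10916 genes in the upper 60% by mean level, the 3 most like each member by r over the 42 arrays were taken. Aox1 was most like Gsta3, a glutathione transferase (r = 0.92), Nfe2l2 (0.90) and Gpx2, a glutathione peroxidase (0.90). Nfe2l2 is the deleted gene, so an r with it over both genotypes largely restates the difference between genotypes. Nqo1 was most like Gpx2 (0.87), Pir (0.86) and Gstp1 (0.79). For Cbr3 they were Me1, the cytosolic malic enzyme (0.91), Txnrd1 (0.90) and Gclc, the catalytic subunit of glutathione synthesis (0.90). For Akr1b8 they were Hmox1, the inducible heme oxygenase (0.96), Kcne4 (0.92) and Slc11a1 (0.92). Aox3 was most like Mgst1 (0.88), Cyp39a1 (0.85) and Gstm1 (0.85), the first and last of which are glutathione transferases. Ephx1 was most like Zmat3, a target of p53 (0.94), Pqlc3 (0.94) and Exoc4 (0.93). Ugdh was most like Actb, the cytoplasmic beta-actin (0.85), Rcan1 (0.84) and Tpm4 (0.83), Cbr1 like Bphl, Lyplal1 and Hacd3 (all 0.86) and Ptgr1 like Tmem126a (0.83), Nme2 (0.83) and Naa20 (0.81).

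Related enzymes, taken from lists written from general knowledge with earlier results of these data known, were counted in the same comparisons. Of 20 aldehyde dehydrogenases, 5 were lower in knockout hyperoxia, where 6.18% of all genes were, led by Aldh1a1 at -1.84 ± 0.16, Aldh1a7 at -0.53 ± 0.07 and Aldh3a1 at -0.49 ± 0.09. In air 7 were lower and 1 higher, against 14.4% and 14.5% of all genes, with Aldh1a1, a retinal and lipid aldehyde dehydrogenase, at -1.12 ± 0.14. The median of the list was -0.14 in hyperoxia and -0.13 in air, beside 0.01 for all genes. With hyperoxia 2 of the 20 were higher and 1 lower in wild type, against 14.4% and 9.53% of all genes. In knockout 2 were higher and 3 lower, against 13.5% and 7.28%. Aldh1a3 rose by 0.88 ± 0.11 in wild type and 0.56 ± 0.11 in knockout, while Aldh6a1 stood at -0.46 ± 0.08 and -0.44 ± 0.08.

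Among 11 measured of 12 other quinone and enone reductases, 3 were lower in knockout hyperoxia (6.18% of all genes), with Txnrd1, the cytosolic thioredoxin reductase, at -1.25 ± 0.05 and Cryz, a quinone reductase and crystallin, at -0.35 ± 0.08. Txnrd1 was the 1 member of that list called in the interaction, at -0.81 ± 0.07, where 0.511% of all genes were called lower. It had risen by 1.04 ± 0.05 in wild type and by 0.23 ± 0.05 in knockout. Of 21 measured of 24 other aldo-keto and carbonyl reductases, 3 were lower in knockout hyperoxia, against the same 6.18%, and Cbr2, a carbonyl reductase abundant in mouse lung, stood at -0.88 ± 0.10. In the interaction 2 of the 21 were called, both smaller in knockout, as were 0.511% of all genes: Cbr2 at -0.60 ± 0.14 and Dcxr, a xylulose reductase, at -0.49 ± 0.11, and Cbr2 was not called there with the organ covariates. Neither was called over days 2 and 3 without the arrays over the organ limit.

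The remaining lists gave fewer calls. Of the 4 other epoxide hydrolases, 1 was lower in knockout air (14.4% of all genes), Ephx2, the soluble form, at -0.85 ± 0.22, and its call was lost with the organ covariates. Mocos, the sulfurase that activates the molybdenum cofactor of aldehyde oxidases, stood at -0.33 ± 0.07 between genotypes in hyperoxia. It was the 1 gene called there of 8 measured genes of that cofactor, where 12.5% of all genes were called in either direction. Of 15 measured genes of glucuronic acid supply and use, 2 were lower in knockout hyperoxia, where 6.18% of all genes were, among them Uxs1, which converts UDP-glucuronic acid to UDP-xylose, at -0.30 ± 0.07 (not called over the mean of its probe sets). The hyaluronan synthases Has1 and Has2 rose with hyperoxia by 0.86 ± 0.14 and 0.68 ± 0.13 in wild type and by 0.56 ± 0.14 and 0.76 ± 0.13 in knockout. Has1 in knockout was not called with the organ covariates, nor Has2 in wild type over days 2 and 3 without the arrays over the limit.

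**Figure D4:**
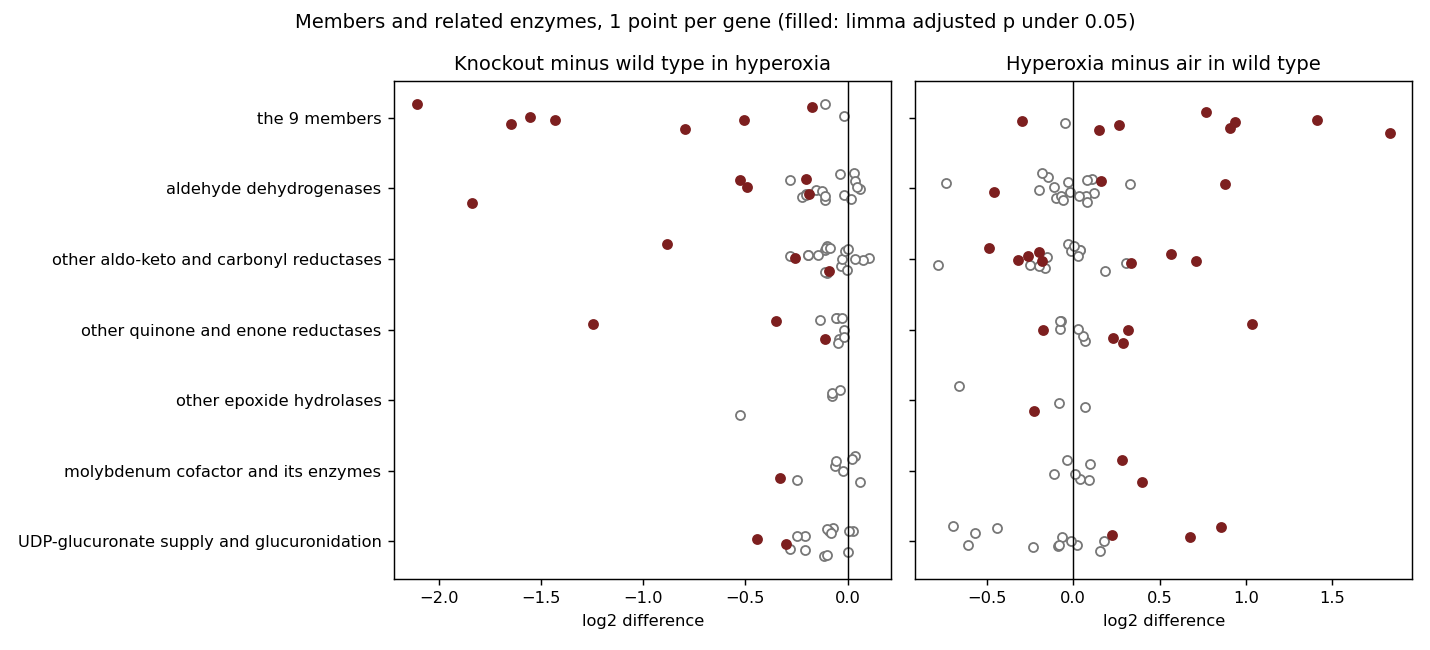
Log2 differences of the 9 members and of the related lists, 1 point per gene, filled where limma called the gene and open where it did not, with points spread vertically at random within a list. In knockout against wild type in hyperoxia (left) 6 of the 9 members lie below -0.5, as do the called genes Aldh1a1, Aldh1a7, Cbr2 and Txnrd1. Hyperoxia against air in wild type is on the right.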

How the data were processed

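RNA of 42 newborn mouse lungs was measured on Affymetrix 3' expression arrays. The deposited table gives 1 log2 value per probe set and array. Per the submitters' processing notes these values come from GCOS and RMA. The sources used here do not give their versions. This method brings all arrays to one distribution, so a shift of all genes cannot be seen. The values were used as they stand.

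Of 45101 probe sets, 34958 with a single symbol were kept, and the one with the highest mean stood for each of 18194 genes. All 42 arrays were fitted as 14 group means in limma 3.58.1 (R 4.3.3; lmFit, contrasts.fit, eBayes). P-values are two-sided, adjusted by Benjamini-Hochberg over all genes. Effects over ages are means of single-age effects. Promoter sequences are from RefSeq. The fit was tested on simulated data.

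Named genes are the 9 members, Nfe2l2, the 3 genes most like each member and up to 3 called genes per related list and comparison. Members, lists and markers were chosen with earlier results of these data known. Same-numbered replicates did not deviate together on average (mean r of 0.006 over 273 pairs, against -0.001 for other numbers). Of these pairs, 77 had an r over 0.1. The main fit did not pair mice by number. This mean cannot show whether some same-numbered mice shared a litter or a batch.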

Additional observations from a re-analysis of the deposited data

Results flagged for a closer look

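The oxygen effect differed between genotypes by the test of the interaction (knockout minus wild type, limma) for Nqo1 (-1.22), Aox1 (-0.83), Akr1b8 (-0.76) and Cbr3 (-0.53). Their effects in wild type were 0.94, 0.91, 1.83 and 0.77, and in knockout -0.29, 0.08, 1.07 and 0.24. The calls of the knockout effects of Nqo1 and Cbr3 were lost under alternatives given with their values. Over days 2 and 3 without the arrays over the organ limit, some groups held 1 array. The interactions there were -0.88, -0.66, -0.89 and -0.67 in the same order, and the loss of their calls is given above.

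The oxygen effect also differed between the third and the first day of exposure. In wild type this difference was 1.68 for Akr1b8, 1.37 for Ephx1, -1.11 for Aox3 and -0.30 for Cbr1. In knockout it was 1.39 for Akr1b8, 1.02 for Ephx1, -1.14 for Aox3 and -0.37 for Cbr1. The days compare different pups, each against air of its own age. The calls of Cbr1 were lost under some alternatives, as given with its values.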

How the results depend on the processing

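No member called in the fit of the deposited values changed direction under any alternative run. The count of members called moved by more than 1.5 times in few settings. Without the 17 arrays over the organ limit, over the days left (chosen after the data were seen), it was lower between genotypes in air and in the interaction. Some groups held 1 array there. With array weights it was 5 rather than 3 for age in knockout air and 1, Cbr3, rather than 0 for the genotype difference in age. With 1 array left out at a time the count for age in knockout air ran from 1 to 3. With the replicate number as a block the counts were 8, 7, 8 and 6 in the comparisons of genotype in air, genotype in hyperoxia, oxygen in wild type and oxygen in knockout, and 4 in the interaction, as without it, and 14 of 42 arrays correlated best with their own number. Leaving out all arrays over the limit could not be fitted as planned for 6 of the 10 comparisons, because all wild-type air arrays of P1 and P2 are over it.

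Counts over all genes moved more. In the interaction 217 genes were called, against 451 with cyclic loess, 985 with array weights, 17 over the days left and 152 to 691 with 1 array left out. Between genotypes the counts were 5271 in air, against 3016 with organ covariates and 2217 over the ages left (21.4% higher in knockout, against 50.2%), and 2270 in hyperoxia, against 4530 with array weights. For oxygen they were 4356 in wild type, against 2373 over the days left, and 3788 in knockout, against 2448 with organ covariates. For the change from day 1 to day 3 in knockout the count was 5507, against 3522 in a fit of these arrays alone, 3232 with organ covariates and 3617 without the arrays over the limit. For age in wild type it was 4083, against 6381 with array weights, and for its genotype difference 5, against 41 with cyclic loess, 1054 with array weights, 3 over mean probe sets, 102 with organ covariates and 1 to 42 with 1 array left out. The causes were not tested. The number of arrays, 3 per group, limits the precision of single-day values.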
